A study of Homo sapiens with 6 samples.

Results

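The genes described here are 45 DNA replication genes, grouped by function and not by their measured values, though chosen with earlier results of these data known. They are subunits of the replicative helicase, origin licensing factors, primase, polymerases, the sliding clamp and its loader, single-stranded DNA binding and lagging strand factors, and a few genes of S phase entry. They were found through the platform annotation, in which 89 of the 54675 probe sets named at least one of them. Of these, 4 named several genes and were set aside, 78 of the other 85 passed the filter on level, and all 45 genes were represented among the 11810 genes tested. The study compared K562, an established human erythroblastic leukemia line, with cells derived from it that resist methotrexate (MTX), an antifolate drug. Total RNA of 3 parental and 3 resistant samples was hybridised to Affymetrix HG U133 PLUS 2.0 arrays, one sample on each array. The parental cells, sensitive to MTX, were kept in Ham's F12 medium with fetal bovine serum. The resistant cells, labelled as resistant to 10e-5M MTX, were grown with dialysed serum in a medium that lacks thymidine, glycine and hypoxanthine, and the design does not separate resistance from medium: they cannot be told apart. Nothing in the labels says that replicates were separate cultures, and p-values then measure only the spread between these samples, which may be technical.

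DNA replication starts at origins, where the origin recognition complex (ORC1 to ORC6) together with CDC6 and CDT1 loads the MCM2 to MCM7 helicase in G1, and geminin (GMNN) blocks a further loading by holding CDT1. CDC45 and the GINS complex turn the loaded ring into the active helicase, polymerase alpha with primase starts each strand, and polymerases delta and epsilon extend it while held by the PCNA clamp that replication factor C loads. Many of these genes are textbook targets of the E2F transcription factors and are expressed together as cells pass from G1 into S phase, in leukemia lines as in other dividing cells.

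No member of the group was called in either direction. The test was limma on log2 signal with Benjamini-Hochberg adjustment over all 26692 probe sets tested, and a call needed an adjusted p under 0.05 and at least a 2-fold difference. Of all genes tested, 1.3% were called as higher in the resistant cells and 1.47% as lower, so 0 of 45 lay near the background and is no result about these genes in particular. At any fold, 0 members passed the adjusted p, against 2.77% of all genes. At an unadjusted p under 0.05 there were 3 members (MCM4, CDT1 and POLD1), or 6.67%, against 20.0% of all genes, and the methods' t-test placed 0 members past the adjusted p and 8 under the unadjusted one, against 20.0% of all genes by that test. With a limma prior that follows intensity and is robust to outlying variances, MCM4 (adjusted p 0.0301) and CDT1 (adjusted p 0.0435) passed the adjusted p, both under 2-fold, and so did 6.35% of all genes.

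The measured differences of the members were small. All 45 log2 differences, resistant minus parental, fell between -0.89 and 0.87, so 0 members reached a 2-fold difference either way, against 13.9% of all genes. The median difference was 0.09 for the members and 0.02 for all genes, with 31 members above 0 (68.9%) and 14 below. Over all genes, 51.4% were above 0. For 35 members the 95% interval of the difference stayed inside 2-fold in both directions, and this held for 41.7% of all genes. The other 10 (MCM4, MCM6, ORC2, CDC6, CDT1, POLA1, POLD1, RFC1, LIG1 and CCNE2) had intervals that reached 2-fold on one side. A member would have needed a log2 difference between 1.07 and 2.24, with a median of 1.25, to pass the adjustment with its own error, so smaller differences could not pass in this fit. The members were bright, with a median mean level of 42.2 array medians against 9.60 for all genes, and the median SD between replicates was 0.16 in parental and 0.23 in resistant arrays on the log2 scale, against 0.31 and 0.28 for all genes. Signals are given here as multiples of the median signal of the array. Since probes differ in brightness, differences are read only between arrays, and the levels of different genes do not rank their transcript amounts. In bulk RNA, fewer cells in S phase and less of a transcript in each cell cannot be told apart.

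**Figure D1:**
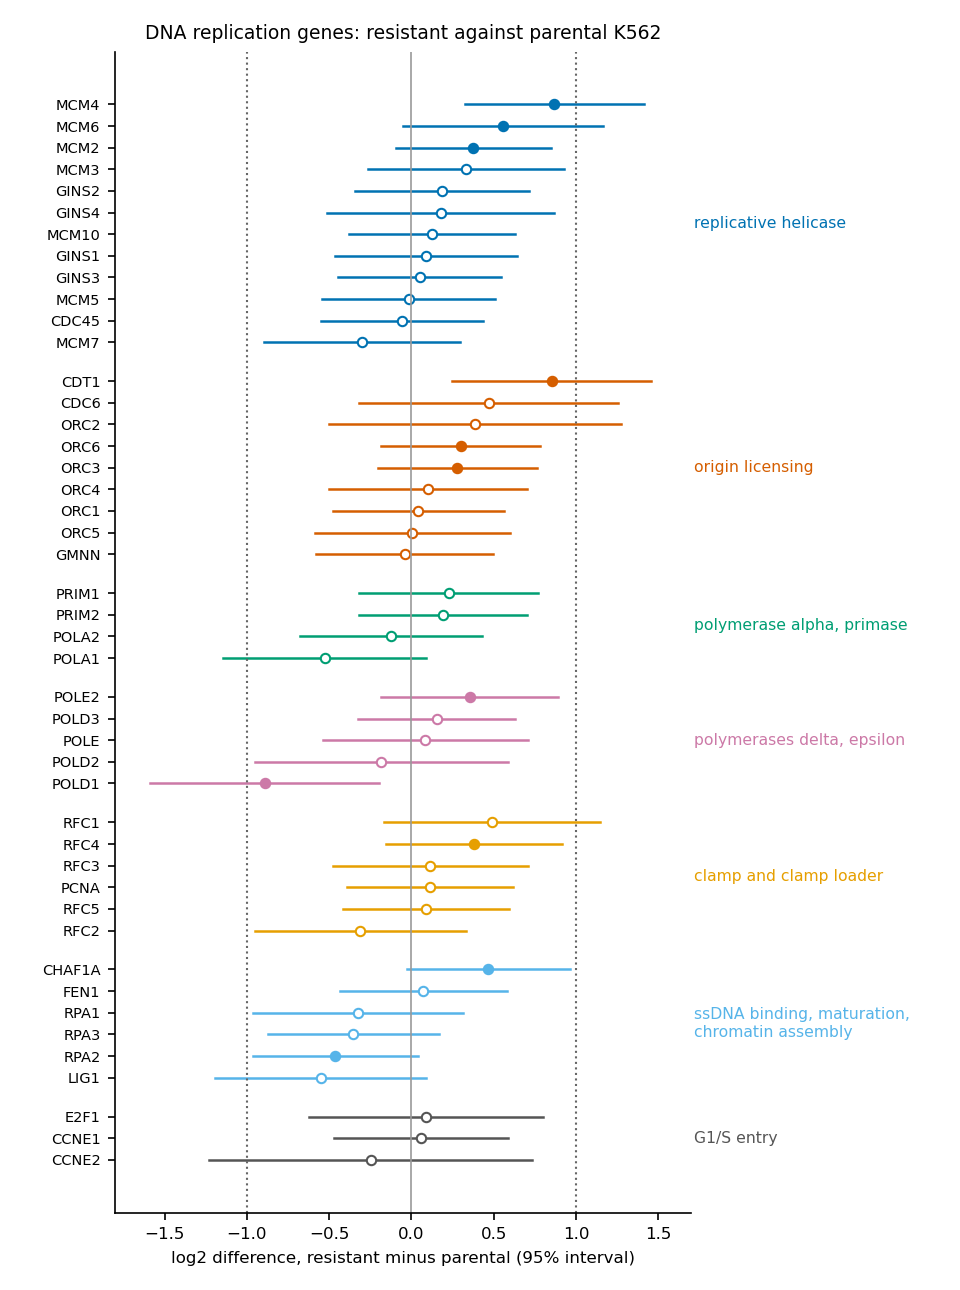
Log2 difference between resistant and parental arrays for each of the 45 genes, grouped by role, with the 95% interval from limma (n = 3 arrays a group). Filled points mark the 11 genes with no overlap between the groups, and dotted lines mark a 2-fold difference. All points lie between -0.89 and 0.87, with MCM4 and CDT1 at the upper end and POLD1 at the lower.

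Promoters of the group show the sequence feature for which it is known. In the RefSeq promoter table (GRCh38.p14), which gives 250 bases before to 50 after each gene's start, 38 of the 45 members had an entry. CCNE2, GINS4, MCM4, MCM5, POLD3, RPA2 and RPA3 had none. An E2F-type motif, searched on both strands as TTTCCCGC, TTTCGCGC, TTTGCCGC or TTTGGCGC, stood in 18 of 38 member windows (47.4%) and in 3.33% of the 27305 windows in the table. At least 2 matches stood in 13.2% of member windows and in 0.154% of all windows. The CCAAT box, spelled CCAAT on either strand, stood in 57.9% of member windows and 35.7% of all. Median GC content was 65.8% and 58.3% in the same order. These are matches of letters, with no statement on binding, and a match on one strand can overlap a match on the other, as in MCM2 and MCM6 below.

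The windows of MCM6, MCM2, CDT1 and POLE2, which with ORC3 were the members with the motif whose resistant arrays all lay above the parental ones, and of POLD1, whose resistant arrays all lay below and whose window held no match, are given 5′ to 3′ on the strand of the gene, in lower case with E2F-type matches in capitals. They lie at chr2:135876394-135876693 (minus strand) for MCM6, chr3:127598161-127598460 (plus) for MCM2, chr16:88803539-88803838 (plus) for CDT1, chr14:49688165-49688464 (minus) for POLE2 and chr19:50384073-50384372 (plus) for POLD1.
MCM6: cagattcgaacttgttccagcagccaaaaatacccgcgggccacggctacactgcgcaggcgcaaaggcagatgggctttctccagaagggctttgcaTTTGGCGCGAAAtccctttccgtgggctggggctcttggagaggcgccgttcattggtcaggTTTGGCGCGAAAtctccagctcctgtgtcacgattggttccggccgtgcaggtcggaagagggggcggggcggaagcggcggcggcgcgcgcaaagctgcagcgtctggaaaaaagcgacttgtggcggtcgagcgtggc
MCM2: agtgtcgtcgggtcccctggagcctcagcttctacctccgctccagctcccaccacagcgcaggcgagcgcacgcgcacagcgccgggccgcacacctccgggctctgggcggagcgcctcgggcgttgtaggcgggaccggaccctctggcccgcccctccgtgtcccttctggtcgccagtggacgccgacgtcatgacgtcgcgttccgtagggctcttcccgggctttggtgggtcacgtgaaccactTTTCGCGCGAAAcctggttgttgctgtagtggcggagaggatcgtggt
CDT1: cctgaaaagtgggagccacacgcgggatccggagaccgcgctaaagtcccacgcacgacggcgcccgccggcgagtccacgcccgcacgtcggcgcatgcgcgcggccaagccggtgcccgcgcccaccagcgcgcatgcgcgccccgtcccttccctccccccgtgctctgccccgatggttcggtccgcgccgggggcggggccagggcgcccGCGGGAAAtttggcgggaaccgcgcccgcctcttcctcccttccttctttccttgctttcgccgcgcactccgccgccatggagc
POLE2: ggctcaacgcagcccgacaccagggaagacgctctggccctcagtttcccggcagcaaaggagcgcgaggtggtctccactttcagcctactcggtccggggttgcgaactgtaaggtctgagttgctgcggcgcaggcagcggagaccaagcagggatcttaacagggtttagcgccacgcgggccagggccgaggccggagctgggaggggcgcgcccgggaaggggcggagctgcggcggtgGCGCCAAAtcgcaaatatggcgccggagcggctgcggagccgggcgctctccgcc
POLD1: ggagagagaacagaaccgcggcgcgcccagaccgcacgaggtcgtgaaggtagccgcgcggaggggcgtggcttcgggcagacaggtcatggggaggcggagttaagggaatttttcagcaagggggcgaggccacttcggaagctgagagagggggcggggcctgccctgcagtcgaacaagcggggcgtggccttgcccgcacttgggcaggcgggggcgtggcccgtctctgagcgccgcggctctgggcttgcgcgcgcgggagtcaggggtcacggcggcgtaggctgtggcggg
The MCM6 window held the motif at 2 places, each read on both strands, with capitals that begin at positions -152 and -90 from the start. ORC6, RFC4 and CHAF1A also had all resistant arrays above the parental ones, and their windows held no match. The group with the motif (18 members) had a median log2 difference of 0.11 and the group without (20 members) one of 0.08, with 14 members above 0 in each.

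The replicative helicase held the member with the smallest p. MCM4, a subunit of the MCM ring, read 44.7, 42.2 and 39.3 array medians in the parental arrays and 95.3, 71.3 and 66.4 in the resistant arrays. Every resistant array lay above every parental one. The difference was 1.83-fold (log2 0.87 ± 0.23 SE, 95% interval 0.32 to 1.42), with an adjusted p of 0.115, and so it did not pass. All 4 of its tested probe sets were above 0, with differences from 0.57 to 0.87, and 3 of them did not overlap between groups. MCM6, another ring subunit, read 96.7, 134.0 and 133.4 across the parental arrays and 165.3, 152.4 and 218.3 across the resistant arrays, again with no overlap (log2 0.56 ± 0.25 SE, adjusted p 0.304). Its second probe set, much dimmer with 2.94, 2.66 and 2.06 against 5.64, 5.69 and 4.62, differed by 1.07 and had the smallest adjusted p of any member probe set, 0.0797. MCM2, whose protein is widely used as a marker of cycling cells, read 71.1, 79.5 and 73.1 in the parental and 103.8, 90.2 and 96.4 in the resistant arrays. These did not overlap either (log2 0.38 ± 0.20 SE, adjusted p 0.359).

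The remaining helicase genes had arrays that overlapped between the groups. The other ring subunits differed by 0.33 (MCM3), -0.02 (MCM5) and -0.30 (MCM7) on the log2 scale. CDC45, which joins the ring when origins fire, read 112.4, 107.7 and 105.4 in parental against 119.2, 103.6 and 91.7 in resistant arrays. Its parental values lay inside the range of its resistant values (log2 -0.06 ± 0.21 SE, 95% interval -0.55 to 0.44, adjusted p 0.906). GINS1, GINS2, GINS3 and GINS4, the partners of CDC45, differed by 0.05 to 0.18, and MCM10, which helps to activate the ring, by 0.13. As a role, the 12 helicase genes had a median difference of 0.15, with 9 above 0.

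Origin licensing genes had the highest median of the 7 roles, 0.28, with 8 of 9 above 0. CDT1, the loader of the MCM ring, read 54.1, 50.2 and 51.0 across the parental arrays and 90.7, 73.1 and 122.8 across the resistant arrays. The lowest resistant array, at 73.1, stood above the highest parental one (log2 0.85 ± 0.25 SE, 95% interval 0.25 to 1.46, adjusted p 0.150). The other probe set of CDT1 differed by 0.81 and did not overlap either. GMNN, the inhibitor of CDT1, differed by -0.04 with a 95% interval from -0.58 to 0.50. CDC6, which acts with CDT1, read 34.6, 18.7 and 18.2 in the parental and 39.1, 30.8 and 25.9 in the resistant arrays. The groups overlapped through parental 1 (log2 0.47 ± 0.33 SE, adjusted p 0.488), and with each array left out the difference ran from 0.31 (without parental 3) to 0.77 (without parental 1, adjusted p 0.161). Its second probe set differed by 0.06.

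Within the origin recognition complex, ORC6 and ORC3 were the subunits without overlap between groups. ORC6 read 35.2, 30.6 and 28.5 in parental against 36.7, 38.5 and 40.5 in resistant arrays (log2 0.30 ± 0.20 SE, adjusted p 0.472). ORC3 read 63.4, 51.3 and 58.2 across the parental arrays and 71.6, 65.8 and 71.6 across the resistant arrays (log2 0.28 ± 0.20 SE, adjusted p 0.502). For both, the gap between the closest arrays of the groups was small beside the spread within them. ORC1, ORC2, ORC4 and ORC5 overlapped and differed by 0.04, 0.39, 0.10 and 0.01.

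The polymerases held the member that was furthest below 0. POLD1, the catalytic subunit of polymerase delta, read 22.2, 35.8 and 35.2 in the parental and 20.9, 14.3 and 14.7 in the resistant arrays. The groups did not overlap, but parental 1 and resistant 1 lay next to each other (log2 -0.89 ± 0.29 SE, 95% interval -1.59 to -0.19, adjusted p 0.176). With each array left out the difference ran from -0.77 to -1.12, the latter without parental 1 and with an adjusted p of 0.0816. The accessory subunits POLD2 and POLD3 differed by -0.18 and 0.15, and POLE, the catalytic subunit of polymerase epsilon, by 0.08, all with overlap. POLE2, its second subunit, read 31.0, 34.0 and 30.8 in parental against 39.0, 34.8 and 49.8 in resistant arrays (log2 0.35 ± 0.22 SE, adjusted p 0.444). Parental 2 and resistant 2 were almost level there, and resistant 3 was the highest. The difference between the direction of POLD1 and that of the other subunits was not tested.

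Among the genes that start each strand, POLA1, the catalytic subunit of polymerase alpha, read 28.9, 24.3 and 20.4 across the parental arrays and 16.1, 14.0 and 21.2 across the resistant arrays. Resistant 3 fell among the parental arrays (log2 -0.53 ± 0.26 SE, adjusted p 0.331). POLA2 differed by -0.12, and the primase subunits PRIM1 and PRIM2 by 0.23 and 0.19, all with overlap.

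PCNA, the sliding clamp and a common marker of proliferation, read 122.3, 130.0 and 125.2 in the parental and 131.8, 119.8 and 159.3 in the resistant arrays. The parental values lay inside the resistant range, and the log2 difference was 0.11 ± 0.21 SE (95% interval -0.39 to 0.62, adjusted p 0.812). Under quantile normalization it was -0.03, so PCNA had no settled direction. RFC4, a subunit of the clamp loader, read 69.6, 72.1 and 74.2 in parental against 88.2, 80.7 and 115.5 in resistant arrays. These did not overlap (log2 0.38 ± 0.22 SE, adjusted p 0.412). RFC1, the large subunit of the loader, read 20.0, 17.3 and 11.8 across the parental arrays and 26.3, 21.6 and 19.9 across the resistant arrays, where resistant 3 was just under parental 1 (log2 0.49 ± 0.27 SE, adjusted p 0.391). The second probe set of RFC1 differed by 0.54, without overlap. RFC2, RFC3 and RFC5 differed by -0.31, 0.11 and 0.09 with overlap. A second probe set of RFC2 differed by -0.65 (adjusted p 0.265), with all resistant arrays, at 35.4, 32.2 and 21.2, below the parental 40.4, 52.3 and 44.3. The clamp and its loader had a median of 0.11, with 5 of 6 above 0.

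The genes of single-stranded DNA binding, Okazaki fragment maturation and chromatin assembly had the lowest median of the roles, -0.34, with 2 of 6 above 0. RPA2, the middle subunit of replication protein A, which coats single-stranded DNA, read 51.4, 54.4 and 43.1 in the parental and 39.4, 34.6 and 33.7 in the resistant arrays. Every resistant array lay below every parental one (log2 -0.46 ± 0.21 SE, adjusted p 0.300). The small subunit RPA3 read 124.1, 111.5 and 99.4 in parental against 99.8, 85.2 and 77.6 in resistant arrays, where resistant 1 and parental 3 were level (log2 -0.35 ± 0.22 SE, adjusted p 0.428). The large subunit RPA1 differed by -0.33 with overlap, so all 3 subunits of the complex had differences below 0, none of them past the test. LIG1, the ligase that seals Okazaki fragments, read 17.2, 16.4 and 12.9 across the parental arrays and 13.9, 9.54 and 8.68 across the resistant arrays. It overlapped through parental 3 and resistant 1 (log2 -0.55 ± 0.27 SE, adjusted p 0.329). FEN1, the flap nuclease of the same step, differed by 0.07.

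CHAF1A, a subunit of the chromatin assembly factor that places histones behind the fork, had closely matched parental arrays at 24.6, 23.8 and 24.3, and its resistant arrays read 34.5, 28.9 and 37.8. They did not overlap (log2 0.47 ± 0.21 SE, adjusted p 0.293). All 3 of its tested probe sets lay above 0, from 0.38 to 0.57. Among the genes of S phase entry, E2F1, the transcription factor, read 5.15, 7.62 and 6.13 in the parental and 9.31, 5.86 and 5.30 in the resistant arrays. Resistant 1 was the highest, and resistant 2 and 3 lay among the parental arrays (log2 0.09 ± 0.30 SE, 95% interval -0.63 to 0.80, adjusted p 0.900). Cyclin E genes CCNE1 and CCNE2, partners of the kinase that drives S phase entry, differed by 0.06 and -0.25, and CCNE2 had the widest interval of the group, -1.23 to 0.74.

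**Figure D2:**
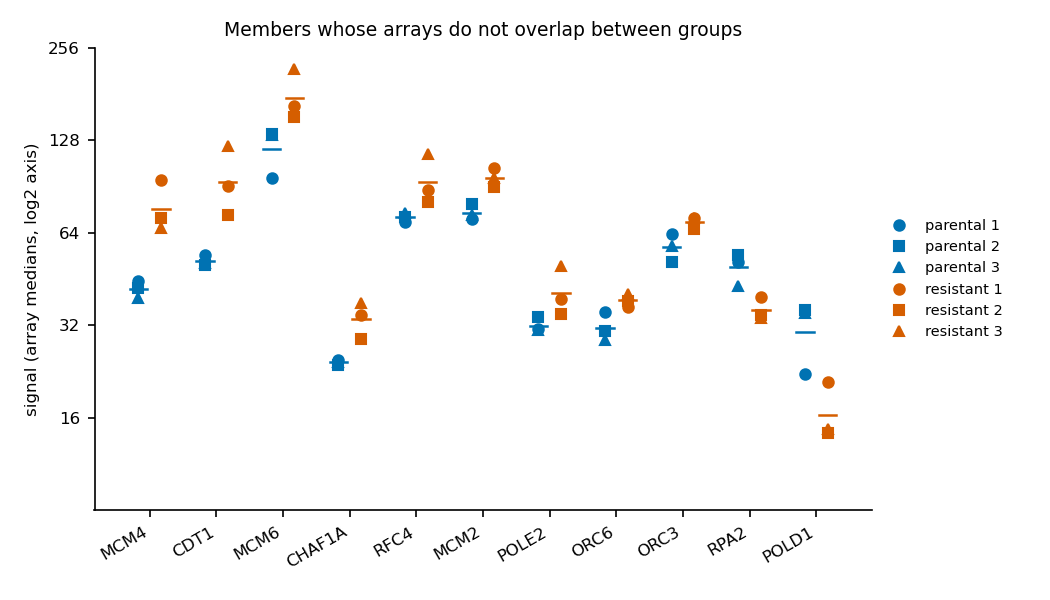
Signal in array medians, on a log2 axis, in each of the 6 arrays for the 11 genes without overlap. Bars are means of log2 values and the marker shape gives the replicate number, which does not link the groups. The upward differences are widest for MCM4, with 39.3 to 44.7 against 66.4 to 95.3, and CDT1, and POLD1 has the wider of the downward ones.

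Counted over the group, 9 members had all resistant arrays above all parental ones (MCM2, MCM4, MCM6, ORC3, ORC6, CDT1, POLE2, RFC4 and CHAF1A), or 20.0%, against 16.1% of all genes. POLD1 and RPA2 were the 2 members with all resistant arrays below, or 4.44%, against 14.2% of all genes. The upper share was near its background. Fewer arrays separate more easily, so without parental 1 the counts were 12 and 4 (26.4% and 20.6% of all genes), without resistant 3 they were 13 and 4 (21.3% and 18.5%), and without both they were 17 and 7 (33.5% and 26.4%).

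Different probe sets of a member did not always give a difference of the same sign. Of 23 members with several tested probe sets, 16 had differences of the same sign, 11 above 0 and 5 below. The signs differed in 7. For FEN1 the differences were 0.07 and -0.05, for GINS3 0.05 and -0.07, and for ORC5 0.01 and -0.21. MCM10 had 0.13, -0.14 and 0.27, and RFC5 had 0.09, -0.17 and -0.33. POLA2 had -0.12 on its brightest probe set and 0.70 and 0.63 on dim ones with mean levels of 3.64 and 1.65 array medians. RFC3 had 0.11 and -0.04 on its bright probe sets and 1.43 on a dim one with a mean of 1.98. None of the 78 probe sets was called, against 1.2% of all probe sets higher and 1.14% lower. Without overlap between groups there were 15 higher and 3 lower, against 14.9% and 12.3% of all probe sets. The brightest probe set stood for the gene in every count above. In 18 of the 45 genes it belonged to a probe set class that can match other transcripts.

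**Figure D3:**
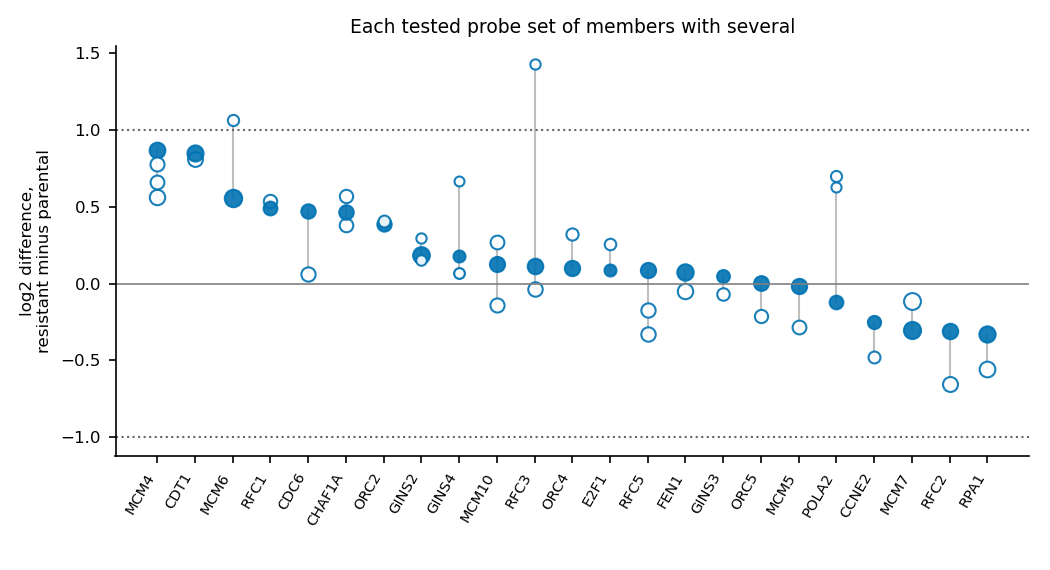
Log2 difference of each tested probe set for the 23 members with several. The filled point stands for the gene, larger points are brighter probe sets, and dotted lines mark a 2-fold difference. The values furthest from 0, 1.43 for RFC3 and 1.07 for MCM6, come from dim ones.

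Some arrays stood apart from their group. Parental 1 correlated with parental 2 and 3 at Spearman 0.899 and 0.889, against 0.969 between the latter, and resistant 3 with the other resistant arrays at 0.941 and 0.946, against 0.968. Of the epithelial markers, 7 of 7 had a probe set and their summed level was 122.7 array medians in parental 1, 38.3 to 48.3 in the other parental arrays and 20.6 to 39.2 in resistant arrays. Most of each sum came from KRT19, at 83.7 in parental 1, 39.9 and 31.8 in parental 2 and 3, and 17.1 to 37.2 in resistant arrays. EPCAM (9.53), CDH1 (21.8), ESRP1 (1.79) and ELF3 (3.43) were also highest in parental 1. KRT7 and CLDN4 were lower there than in the other parental arrays. CLDN4 and ESRP1 had a mean under 1 array median. The actin 3′ to 5′ signal ratio, a control of RNA integrity, was 2.01 in resistant 3 and 1.19 to 1.5 in the others. Lymphoid markers summed to 36.6 to 52.2 in parental and 3.96 to 6.04 in resistant arrays and CD3D alone read 31.9 to 50.3 and 0.078 to 2.14. Here 4 of the 6 with a probe set had a mean under 1 array median. Monocyte and granulocyte markers summed to 42.9 to 63.9 and 10.9 to 23.3, mostly from LYZ, with 4 of 5 under 1 array median. Fibroblast markers summed to 7.37 to 8.73 and 6.60 to 8.87. Of 10 erythroid markers that define K562, 8 had a probe set and all 8 had a mean of at least 1 array median, with HBZ, an embryonic globin, at 551.3 to 713.8. A list of 8 quiescence genes, 7 with a probe set, summed to 74.1 to 116.4 in parental and 113.4 to 158.8 in resistant arrays, and 0 of the 7 passed the adjusted p. BTG1 carried the higher sum, with 23.2, 46.0 and 37.3 in the parental group against 119.3, 97.0 and 76.0, while the other 6 summed to 50.9 to 70.3 and 36.0 to 39.4. Within those 6, KLF2 also had all resistant arrays above the parental ones, at 0.38, 2.04 and 2.26 against 2.61, 3.29 and 4.44. CDKN1C read 4.22, 40.7 and 38.7 in the parental arrays against 11.9, 9.29 and 8.65. The part of these arrays, markers and ratios in the replication genes' values was not tested beyond leaving out parental 1 and resistant 3. Without both, 0 members passed the adjusted p, the median of the members was 0.07, and MCM4, CDT1 and POLD1 differed by 1.02, 0.69 and -1.04. MCM6, RFC4 and POLE2, each highest in resistant 3, then differed by 0.25, 0.21 and 0.19, against 0.56, 0.38 and 0.35 with all arrays.

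Arrays of the same group also differed from each other over the members. Their median deviation from each gene's own mean over the 6 arrays was -0.005, 0.001 and -0.120 in the parental arrays and 0.128, -0.066 and 0.064 in the resistant arrays, on the log2 scale. The same median over all genes was 0.072, 0.040 and -0.083, then 0.151, -0.074 and -0.003. Resistant 1 was the highest array of its group in 25 of 45 members and resistant 2 in 1, while resistant 2 was the lowest in 24. Parental 3 was the lowest parental array in 22. The gap between resistant 1 and resistant 2 in these medians was therefore wider than the median difference between the groups.

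**Figure D4:**
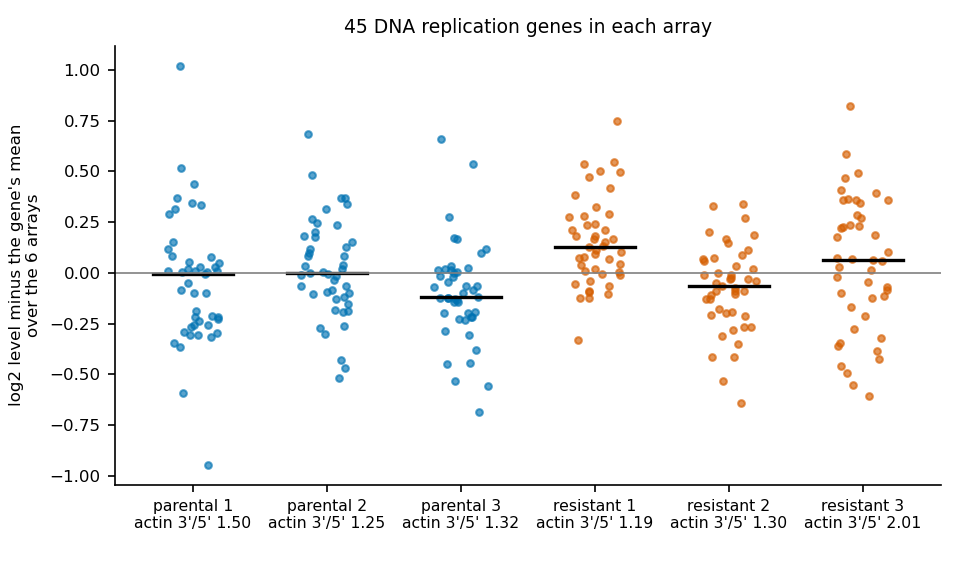
Log2 level of each of the 45 genes minus its mean over the 6 arrays, in each array, with the median as a black bar and the actin 3′ to 5′ ratio under the array's name. Medians run from -0.120 in parental 3 to 0.128 in resistant 1, and the arrays of each group differ among themselves by more than the groups do.

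Other genes of replication gave no calls either. From a list of 62 genes of origin firing, fork protection, chromatin assembly and E2F control, 61 were tested, 0 were called in either direction, and 10 had an unadjusted p under 0.05. Their median difference was 0.02, with 33 above 0, and 11 higher and 8 lower had arrays that did not overlap. The widest differences of the 6 genes with the smallest p were below 0. E2F7, a repressor of E2F target genes, read 31.4, 14.8 and 10.7 in parental against 5.17, 4.58 and 6.48 in resistant arrays (log2 -1.67 ± 0.42 SE, adjusted p 0.106). CDKN1A, the p21 inhibitor of cyclin-dependent kinases, which also binds PCNA, read 14.2, 5.60 and 6.13 across the parental arrays and 3.18, 2.01 and 2.89 across the resistant arrays (log2 -1.57 ± 0.41 SE, adjusted p 0.115). Both were highest in parental 1, the array with the highest sum of epithelial markers, and neither overlapped between the groups.

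The other four genes of that list did not overlap between groups either. DONSON, a factor of helicase assembly, read 92.4, 71.1 and 58.2 in the parental and 48.0, 37.6 and 31.5 in the resistant arrays (log2 -0.92, adjusted p 0.154). ATAD5, which unloads PCNA, differed by 0.88 (adjusted p 0.106), DSCC1, a subunit of an alternative clamp loader, by 0.93 (adjusted p 0.165), and E2F5 by 1.10 (adjusted p 0.107), all with resistant arrays above parental ones.

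Mitosis genes and the enzymes of deoxynucleotide supply, read beside the members, also had 0 calls. The 24 mitosis genes had a median of 0.07 and 0 with an unadjusted p under 0.05, against 20.0% of all genes. The smallest p belonged to the checkpoint kinase BUB1B at 0.43, then AURKB at 0.74, AURKA at 0.34, CDC20 at 0.42, ASPM at 0.31 and CDK1 at 0.26. BUB1B was the only one of them without overlap, higher in resistant arrays (4.17%, against 16.1% of all genes). The 17 deoxynucleotide supply genes tested of 18 had a median of 0.04. SAMHD1, which degrades deoxynucleotides, read 14.3, 14.4 and 18.9 in parental against 6.98, 3.60 and 8.16 in resistant arrays (log2 -1.41 ± 0.35 SE, adjusted p 0.105). Thymidine kinase TK1 read 38.4, 39.2 and 34.3 across the parental arrays and 28.4, 20.4 and 19.0 across the resistant arrays (log2 -0.74 ± 0.24 SE, adjusted p 0.171). Both had all resistant arrays below all parental ones. SAMHD1 passed the adjusted p with a pseudocount of 1 array median and under the intensity trend with a robust prior, and it was called lower under both. CAD, CTPS2, DTYMK and RRM2B differed by 0.59, 0.35, 0.38 and 0.44, of which CTPS2 did not overlap.

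**Figure D5:**
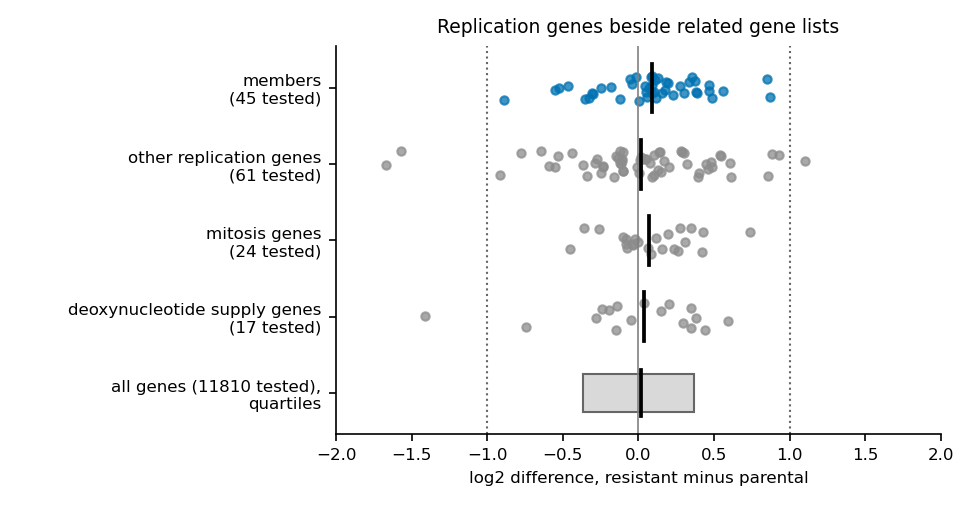
Log2 difference between resistant and parental arrays for the 45 members, the other replication genes, mitosis genes and deoxynucleotide supply genes, one point a gene, with the median as a black bar. The box runs from the lower to the upper quartile of all 11810 genes tested. The medians lie between 0.02 and 0.09, and points beyond a 2-fold difference (dotted lines) appear in the other replication genes (3) and in deoxynucleotide supply (1).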

How the data were processed

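RNA of 3 parental and 3 MTX-resistant K562 samples was labelled with biotin and hybridised to HG U133 PLUS 2.0 arrays, and per the submitters' processing notes MAS5 (version not given in the sources used here) produced the signals. The deposited table holds these signal intensity values, one per probe set and array, already background-corrected by the authors on a linear scale. The fold changes of the authors were not used. Here each intensity was divided by its array's median and floored at 0.01 of it, and log2 was taken. Probe sets with a mean of at least 1 array median over the 6 arrays (26692 of 54613 non-control ones) were tested two-sided with limma 3.58.1 in R 4.3.3 (lmFit and eBayes, Benjamini-Hochberg). The authors' control strength filter was not rebuilt, and the level filter stands in its place. A gene was represented by its brightest tested probe set that names 1 gene in the platform annotation (41097 probe sets did, 1801 named several and 11777 none). Precision is limited by how few arrays there are.

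The members and the lists were chosen with earlier results of these data known. Full values are given for members called or past the adjusted p, the 16 with the smallest p, and MCM2, PCNA, CDC45 and E2F1. From each other list, called genes and up to 6 with the smallest p are named. Where tested probe sets of a member differed in sign or call, each value is given. Motif searches and summaries used Python 3.11.15. The fit was tested on simulated data, drawn independently for each probe set and array. No shift shared over a whole array was simulated, so that run cannot speak to parental 1 or resistant 3. No result above rests on it. A search for a PCNA-binding motif in proteins was planned and not run. Alternatives were another normalization, filter, pseudocount, variance model, test, block and choice of probe set, and leaving out arrays. Leaving out parental 1 and resistant 3 together was added after seeing the data.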

Additional observations from a re-analysis of the deposited data

How the results depend on the processing

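Without shared-sequence probe sets, only 34 of the 45 members were tested, and CDT1 and MCM2 were among those left untested. Among members tested, none was called under any alternative run, and 0 passed the adjusted p except under an intensity trend with a robust prior. There 2 did, MCM4 (adjusted p 0.0301) and CDT1 (adjusted p 0.0435), both under 2-fold, against 6.35% of all genes. Under the same setting 1 of the other replication genes was called higher (E2F5) and 2 lower (E2F7 and CDKN1A), and DONSON passed the adjusted p under 2-fold. SAMHD1 was called lower there too, with its log2 difference of -1.41. With a pseudocount of 1 array median, 1 of the other replication genes (E2F7) was called lower, and so was SAMHD1. With values as deposited the median of the members was -0.11 and that of mitosis genes -0.13, where the median of all genes was -0.19. The members' median was 0.03 to 0.16 with each array left out. Over all probe sets, called 319 higher and 303 lower, the counts were 563 and 570 under the trend, 82 and 44 with the methods' t-test, 97 and 77 with no level filter, 599 and 592 with the pseudocount, 198 and 187 without shared-sequence probe sets, 526 and 488 without parental 1 and resistant 3, and 205 and 317 with values as deposited. The higher share was 39.3% with values as deposited and 65.1% with the methods' t-test, against 51.3%. Leaving out an array gave 103 (without resistant 2) to 633 (without parental 1) higher and 79 (without parental 2) to 447 (without parental 1) lower. It was 162 higher without parental 2, and without parental 3, resistant 1 and resistant 3 it was 177 and 119, 108 and 162, and 151 and 171. CDC45, E2F1 and PCNA had no settled sign. CDC45 was 0.061 without parental 1 and resistant 3 and -0.15 to 0.035 with an array left out, above 0 without resistant 3. E2F1 was -0.11 with values as deposited and -0.16 to 0.25 with an array left out, below 0 without parental 1 or resistant 1. PCNA was -0.029 with quantile normalization, -0.088 with values as deposited, -0.022 without parental 1 and resistant 3, and -0.0018 to 0.20 with an array left out, below 0 without resistant 3. The causes were not tested. Of 316 values of the named members under alternatives, 305 kept their direction and side of the adjusted p threshold, 9 changed sign and 2 passed it. Changes of level filter, variance model, test or block, and leaving out shared-sequence probe sets, left these log2 differences as they were. A sign could not change under those, so the count of 305 is no measure of how steady the directions were. Shared replicate numbers did not pair the samples, as deviations of arrays with the same number correlated at -0.007, -0.025 and -0.006. With the replicate block, 133 probe sets were called higher and 136 lower, and 0 members. Signal over background sets what dim probe sets can show.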
